A study of Homo sapiens with 3 samples.

Results

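The tensins are a family of 4 adaptor proteins, TNS1, TNS2, TNS3 and TNS4. Their transcripts were followed here in colorectal cancer cells in which the arginine methyltransferase PRMT1 was knocked down. Members were all non-control array probes whose gene name in the files was TNS1, TNS2, TNS3 or TNS4 (TENC1, an older name of TNS2, was searched as well). This gave 6 probes among 58201: 3 for TNS1 and 1 each for TNS2, TNS3 and TNS4. Of the 6 probes, 5 were well above background on at least 1 array and 4 on all arrays, so every tensin gene had at least 1 measured probe.

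Tensins sit at focal adhesions, the contacts through which integrin receptors tie the actin cytoskeleton to the extracellular matrix. All members carry SH2 and PTB domains, which bind tyrosine-phosphorylated proteins and the tails of beta integrins. TNS1, TNS2 and TNS3 also have a long amino-terminal part, which in TNS1 and TNS3 links to actin, whereas TNS4 (also called Cten) is short and lacks it. In mammary epithelial cells, EGF is known to lower TNS3 and to raise TNS4, and TNS4 is commonly raised in colorectal tumours.

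The study asked which transcripts lie downstream of PRMT1, and followed TNS4 together with the EGF receptor gene EGFR. The paper picked both from genes it called lower in the PRMT1 knockdowns used here and in SMARCA4 knockdowns on other arrays. SMARCA4 is a chromatin remodelling protein, and published data on its binding in HCT116 narrowed the choice. On these arrays, a lower TNS4 in both PRMT1 knockdowns was thus a condition of its choice and not an independent finding. Apart from the arrays, the paper reported lower TNS4 RNA and protein after PRMT1 knockdown in HCT116, by quantitative PCR and western blot. RNA came from HCT116, an established human colorectal carcinoma line grown in McCoy's 5A medium with serum. The cells were transfected with small interfering RNAs with a lipid reagent. There was 1 array for the negative control (NC), 1 for the first PRMT1 knockdown (KD1) and 1 for the second (KD2). The labels list 2 siRNAs against PRMT1, printed here because they define the knockdowns, but do not say which array received which. They do not describe the oligonucleotide given to NC. The strands, written 5′ to 3′ as the labels give them, were:
PRMT1 siRNA-1: cugaaguccaggucgauggugaaguc
PRMT1 siRNA-2: uuguagucuuuguacugcc

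With 1 array per group no difference has a replicate check, and no test between groups was made. Both knockdowns were also compared with the same NC array, so an error on that array enters both changes. The change of each probe was instead set beside 3 yardsticks. These included a fold of 1.5 (0.58 on the log2 scale) and the error that the scanner software attached to the spot. The last was the difference between KD2 and KD1 over other probes. It mixes differences between the knockdowns with noise and leaves NC out, so it is not the error of a change from NC. PRMT1 itself had normalized log2 signals of 6.03, 2.75 and 1.48 on NC, KD1 and KD2, so the knockdowns held 10.3% and 4.26% of the control. Of the cell type markers, 5 of 6 epithelial markers were well above background on every array (VIL1 was not), and KRT19 read 11.38, 11.06 and 11.18. The summed log2 signal of this list, carried by the bright keratins, was 12.23, 11.80 and 11.91 in the same order, while CDH1 was higher in the knockdowns (1.26, 2.20 and 2.02) and EPCAM read 6.47, 6.74 and 6.46. Of 5 fibroblast markers, COL1A1 alone was above background (summed signal of the list 1.60, 1.83 and 2.19). CD14 was the leukocyte marker seen on every array, with PTPRC added on KD2 (summed signal -0.23, -0.14 and 0.36). Of 3 endothelial markers CDH5 and VWF were seen and PECAM1 was not (summed signal -0.66, 0.10 and -0.35), and CDH5 read -2.24 on NC against -0.78 and -1.69 in the knockdowns. Whether these differences have a part in the tensin values was not tested.

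The 60-base probes decide which transcripts are read, so their sequences are given first. TNS4 is represented by a single probe at the end of the transcript. It begins at base 3994 of NM_032865 and lies on chromosome 17, 38632098 to 38632157, minus strand (hg19, as are all positions here). The TNS3 probe lies on chromosome 7, 47315219 to 47315278, minus strand, from base 7091 of NM_022748. Their last 30 bases, with a polyadenylation signal hexamer in capitals, read:
TNS4 A_23_P207850: acagctcctatcatgaaaAATAAAatgttt
TNS3 A_24_P346431: gtgttacatgtgcATTAAAcagaacaagct
The sense strand was searched for AATAAA and ATTAAA. The former was present in the last 30 bases of 6.0% of all probes and the latter in 2.39%. A hexamer in these letters is a match and not a mapped cleavage site.

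TNS1 is covered at 3 places of NM_022648. The first probe starts at base 1247, and its 60 bases extend over 2683 bases of the genome (chromosome 2, 218747097 to 218749779, minus strand), so it crosses at least 1 splice junction and is exonic. The other TNS1 probes start at base 7159 (218667569 to 218667628) and base 9867 (218664861 to 218664920). They are 2708 bases apart in the genome and in the transcript alike, so no intron separates them. The whole first probe and the last 30 bases of the others are shown, because the 3 probes gave different readings:
TNS1 A_24_P105733: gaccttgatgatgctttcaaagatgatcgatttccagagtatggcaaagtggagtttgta
TNS1 A_33_P3738458: gcattgtactgatatataaatattatataa
TNS1 A_33_P3209491: gtgcgtgtgtgtgagagcacatcagtgtgt
Neither hexamer was found in the printed part of these probes.

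TNS2 has 1 probe, which starts at base 4355 of NM_015319 (chromosome 12, 53457567 to 53457626, plus strand) and has a GC content of 55.0%, against 35.0% to 45.0% for the other tensin probes. It is shown whole for comparison with the TNS4 probe, whose change it came close to:
TNS2 A_23_P151297: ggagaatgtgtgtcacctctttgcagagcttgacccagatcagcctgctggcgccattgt
No pair of tensin probes shared a run of more than 8 bases on either strand. Exon and untranslated-region annotation of hg19 was not used here.

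TNS4, the short member that lacks the actin-linking part, was lower in both knockdowns by close to the same amount. That it was lower in both was given by the way the paper chose the gene from these arrays. The processed intensities were 2540 (NC), 1617 (KD1) and 1371 (KD2). After scaling, the log2 signal was 4.47, 3.40 and 3.48, with a scanner error of 0.14 on each array. NC was thus highest, and the knockdowns differed from each other by 0.08, less than the error of that difference (0.20). The change was -1.07 in KD1 (47.7% of NC) and -0.99 in KD2 (50.4%), each with a scanner error of 0.20. Among probes of like brightness the robust SD of KD2 minus KD1 was 0.34. In a bulk sample, fewer cells expressing a gene and less RNA per cell cannot be told apart.

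TNS2, a focal adhesion tensin with an added C1 domain at its amino terminus, followed the same pattern from a much dimmer spot. The intensities were 64.4 (NC), 41.7 (KD1) and 32.1 (KD2). Scaled, NC read -0.83 (scanner error 0.17), KD1 -1.87 (0.21) and KD2 -1.94 (0.22) in log2 units. Again NC was highest and the knockdowns were within their error of each other. The change was -1.04 in KD1 (48.6% of NC, scanner error 0.27) and -1.10 in KD2 (46.6%, error 0.28). Both exceeded the robust SD of KD2 minus KD1 at this brightness (0.47), a spread that leaves the NC array out.

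TNS3, an actin-linked tensin, stood higher in both knockdowns. NC had an intensity of 18.1, not well above background, against 51.2 on KD1 and 37.0 on KD2. Scaled, NC read -2.67, KD1 -1.58 and KD2 -1.73 in log2 units, with scanner errors of 0.34, 0.19 and 0.20. The lowest signal among probes well above background on NC was -2.69, so the TNS3 value there lay at the limit of detection. The folds use that reading as it stands, so they are uncertain estimates and not lower bounds. TNS3 read 2.13-fold higher in KD1 (log2 change 1.09, scanner error 0.38) and 1.91-fold higher in KD2 (0.94, error 0.39). The knockdowns differed by -0.15, within their error of 0.27.

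The probes of TNS1, the founding member, did not give 1 answer. The splice-crossing probe, which starts nearest the beginning of the transcript, read 3.68, 4.03 and 3.58 in intensity on NC, KD1 and KD2, was not well above background on any array and gives no fold. The probe at base 7159 had intensities of 191, 173 and 197 and log2 signals of 0.73, 0.18 and 0.68, with a scanner error of 0.15. Its log2 change was -0.56 in KD1 (68.0% of NC), just short of 1.5-fold, and -0.06 in KD2 (96.2%). When the percentile was taken over detected probes, the KD1 value was -0.60, past 1.5-fold, which made 3 lower tensin probes in KD1.

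The probe at base 9867, the last of the TNS1 set, went the other way. The intensities were 28.7 (NC), 97.4 (KD1) and 54.4 (KD2), and the log2 signals -1.998, -0.65 and -1.18. The change was 1.35 in KD1 (2.54-fold, scanner error 0.29) and 0.82 in KD2 (1.77-fold, error 0.29). NC was lowest and KD1 highest, although KD2 and KD1 differed by -0.52, close to the robust SD of 0.47 for such probes. The changes of the last probe and of the probe at base 7159 lay 1.90 log2 units apart in KD1 and 0.88 in KD2. A direction for TNS1 as a gene therefore depends on the probe: its brightest probe gave -0.56 and -0.06, and the mean over its measured probes gave 0.39 and 0.38. Which transcripts either probe reads was not tested.

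Counted over the 5 measured probes, 2 were lower past 1.5-fold in KD1 (TNS4 and TNS2) and 2 were higher (TNS3 and the last TNS1 probe). Over all 25237 probes measured in that comparison, 13.7% were lower and 12.5% higher. The same 4 probes were past the fold in KD2, in the same directions, where 10.2% of 25470 probes were lower and 9.78% higher. Between KD2 and KD1 no tensin probe differed by 1.5-fold, against 18.5% of all 25680 probes measured there. With 5 probes such counts describe the family and set it apart from nothing. At the level of genes, the median change of all genes was -0.07 in KD1 and -0.05 in KD2.

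How the arrays are scaled to each other moved the KD1 values as a block. With spike-in scaling the KD1 change was -0.43 for TNS4 and -0.41 for TNS2, both under 1.5-fold, while the median of all genes moved to 0.57. With the unscaled series matrix values that median was 0.35. Measured from the median of all genes, a scaling that shifts every probe alike leaves a change as it is by construction, so only the settings that treat probes differently bear on it. TNS4, reported at -0.999 from that median in KD1 and -0.94 in KD2, lay at -0.99 and -0.89 with normexp background correction, -1.04 and -0.89 with quantile normalization and -1.04 and -0.88 with cyclic loess. TNS2 lay at -0.48 and -0.37 with normexp, and TNS3 at 0.16 and 0.15. Normexp adds an offset of 50 to intensities that were of about this size for TNS2 and TNS3. That setting took TNS2 (-0.53 and -0.40), TNS3 (0.11 and 0.12) and the last TNS1 probe (0.54 and 0.27) under 1.5-fold. The bright TNS4 probe stayed past 1.5-fold with it.

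The proteins to which tensins bind were then read from a list of 15 genes, of which 14 were measured (DLC1, a tumour suppressor held at adhesions by tensins, was not above background). In KD1, 4 were higher past 1.5-fold and none was lower, against 12.4% higher and 14.0% lower over all 19231 genes measured. In KD2, 1 was higher and 1 lower, against 9.68% and 10.6% of 19421 genes. The median change of the list was 0.28 in KD1 (range -0.56 to 0.90) and 0.15 in KD2 (range -0.75 to 0.60). PTK2, the focal adhesion kinase, was the 1 member beyond 1.5-fold in a shared direction: it read 1.63 on NC against 2.51 and 2.23 in the knockdowns, a change of 0.89 and 0.60. The other genes higher in KD1 were EGFR, the hepatocyte growth factor receptor gene MET (0.62) and the insulin receptor substrate IRS1 (0.90, and 1.05 at its other probe), and in KD2 MET and IRS1 read -0.09 and 0.04. ITGB1, the beta integrin whose tail tensins bind, had log2 changes of 0.33 and 0.43. CBL, a ubiquitin ligase that TNS4 binds, had 0.42 and 0.43, both genes under 1.5-fold.

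EGFR crosses the tensins as the gene studied beside TNS4. At its brightest probe KD1 read 0.65 above the control and the KD2 change was -0.75, so that probe went with TNS4 in KD2 and opposite to it in KD1. The other EGFR probes, also above background on every array, gave 0.02 and -0.68, and 0.35 and 0.26. In KD1 no EGFR probe was lower than NC, unlike TNS4. In KD2 the direction of EGFR beside TNS4 depends on the probe. The paper lists EGFR as lower past 1.5-fold in both PRMT1 knockdowns, which these values do not show for KD1. The paper processed the arrays with other software, and the reason for the difference was not tested.

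Other structural and signalling proteins of focal adhesions, 23 genes that were all measured, showed no common direction. In KD1, 3 were lower and 3 higher past 1.5-fold, and in KD2 5 were lower and 2 higher. The shares were 13.0% and 13.0% in KD1, against 14.0% lower and 12.4% higher over all genes, and 21.7% and 8.70% in KD2, against 10.6% and 9.68%, with list medians of -0.17 (range -0.73 to 0.82) and -0.16 (lowest -1.34). The actin cross-linkers ACTN1 (-0.73 and -0.66) and ACTN4 (-0.64 and -1.34) were lower in both knockdowns. ACTN4 read 5.93 on NC, 5.29 on KD1 and 4.59 on KD2, so KD2 was the lowest array. ENAH, which promotes actin filament elongation (0.82 and 0.60), was higher in both. ENAH has 2 further probes, neither above background. Integrin-linked kinase, ILK, had log2 changes of -0.04 and -0.22. The talin gene TLN1 had -0.17 and 0.17 at its brightest probe. Its other probe, dimmer but above background on every array, was lower past 1.5-fold in both knockdowns (-0.61 and -0.66).

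The genes around TNS4 were examined for a change of the same kind. Within 250 kb of the TNS4 probe the array holds 17 other genes, 10 of them measured, and none passed 1.5-fold in a shared direction in KD1 and KD2. In KD1, 1 was lower and 1 higher past it, and in KD2 1 was lower and 0 higher. Over all genes, 14.0% were lower and 12.4% higher in KD1, and 10.6% and 9.68% in KD2. The share of all genes past it in both knockdowns was not computed, so a count among 10 genes does not set TNS4 apart. The nearest genes on either side, the growth factor binding protein gene IGFBP4 at -18.8 kb and LOC101059954, differed in detection. IGFBP4 was not above background, and LOC101059954 had changes of -0.62 (KD1) and -0.52 (KD2). TNS4 itself, which the paper had chosen as a lowered gene, was below all 10 in both knockdowns. TOP2A, a DNA topoisomerase, had changes of -0.05 and -0.63, and CDC6, a replication licensing factor, 0.33 and -0.47. SMARCE1, a subunit of the SWI/SNF chromatin remodelling complex, was past 1.5-fold upwards in KD1 (0.65) and at 0.29 in KD2. The retinoic acid receptor gene RARA (-0.06 and 0.03), its antisense transcript RARA-AS1 (-0.06 and 0.28), WIPF2 (0.10 and 0.32), lnc-CCR7-1 (0.07 and 0.16), lnc-TMEM99-5 (0.33 and 0.11) and KRT222 (-0.09 and -0.41) stayed under 1.5-fold in both.

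Around the TNS2 probe, in a gene-dense stretch of chromosome 12, 22 of 23 genes were measured. Of these, 3 were lower and 1 was higher past 1.5-fold in KD1, 1 was lower in KD2, and none was past it in both. Over all genes 14.0% were lower and 12.4% higher in KD1 and 10.6% lower in KD2. KRT79, above background on KD2 alone, has no KD1 change. Among the others, 3 lower in KD1 is near the share of all genes. The keratin genes KRT8 (-0.89 and -0.39) and KRT18 (-0.54 and -0.56), picked out after their values were seen, lie in this window. Of 2 genes near TNS3 1 was measured and stayed under 1.5-fold, and the 1 gene near the last TNS1 probes was not measured.

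Finally, the genes whose pair of changes lay nearest to that of each tensin were listed among 13544 genes that were above background on every array and whose name matched a RefSeq symbol or synonym, by the straight-line distance between the pairs of log2 changes. For TNS4 they were TBC1D2B (-1.04 and -0.99, distance 0.03), the mitochondrial carrier gene SFXN2, SMIM1, C5orf58 and IGFLR1 (distance 0.09). For TNS2 they were GLMP, which encodes a lysosomal membrane protein (-1.03 and -1.08), IL22RA1, an interleukin receptor subunit, GFY, EIF6, a ribosome assembly factor (-0.98 and -1.11), and RBM41. For TNS3 they were RASA3, a GTPase-activating protein for Ras (1.11 and 0.94), CNNM4, the kinase gene PAK2 (1.13 and 0.94), IL1RAP and CSRNP1. For the last TNS1 probe they were AGTPBP1, MAP2K1, the MEK kinase gene directly upstream of ERK (1.35 and 0.84), EEA1, a protein of early endosomes (1.35 and 0.84), and VOPP1. Likeness over 2 changes that share an NC array is a description and nothing more.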

How the data were processed

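Total RNA of 3 HCT116 samples was labelled with Cy3 and hybridised to 1-colour Agilent arrays. The authors deposited scanner output made by Agilent Feature Extraction 10.7.1.1, and the processed intensity per spot was used, background-corrected on each array and not scaled between arrays. The deposited series matrix, an unscaled mean intensity per probe, was an alternative. Control spots and spots marked non-uniform or population outliers were left out (130 probes lost). Spots of a probe were averaged as log2, and the 75th percentile of each array was subtracted. Where a probe was not well above background on 1 array, the higher of its own value and the lowest signal above background was used. A gene was read from its brightest probe. The scanner error is that of the software's model, with a fixed part of 10%, and covers the spot only. The number of arrays limits precision.

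The tensins and the gene lists were chosen with earlier results of these data known. Genes named are all tensin probes, PRMT1, EGFR, list members beyond 1.5-fold in a shared direction in KD1 and KD2, measured genes within 250 kb of TNS4 and the 5 nearest patterns. Some genes that this rule names are not reported here. Others named in the lists were picked after their values were seen. The p-value of the study's methods needs replicates and was not computed. Alternatives were normexp on mean and background signals (offset 50), quantile, median and cyclic loess scaling, a percentile over detected probes, scaling to 8 spike-in probes, the series matrix, marked spots kept, a fold of 2, other background filters and the mean over probes. Counting was tested on simulated data with less spread than these arrays show and planted changes well beyond 1.5-fold. That checks the counting step and not how reliable a 1.5-fold call is here. Tools were Python 3.11.15, numpy 2.4.6, pandas 2.3.3, R 4.3.3 and limma 3.58.1. Gene names are those of the files.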

Additional observations from a re-analysis of the deposited data

Results flagged for a closer look

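EGFR, the gene studied beside TNS4, moved past 1.5-fold upwards in KD1 (log2 change 0.65) and past it downwards in KD2 (-0.75), read at the brightest of its probes. The other EGFR probes gave 0.02 and -0.68, and 0.35 and 0.26. No EGFR probe was thus lower in KD1, although the paper lists the gene as lower past 1.5-fold there. The difference between the knockdowns was not tested, since each had 1 array.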

How the results depend on the processing

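No paired analysis was possible because each group has 1 array. Over 222 recomputed values, 165 stayed within 0.38 log2 units (counts within 1.5 times) of the reported ones and 57 moved, none of a tensin past 1.5-fold to the opposite sign. Within those limits, a percentile over detected probes took the TNS1 probe at base 7159 past 1.5-fold in KD1 (-0.60; 3 lower tensin probes), and median scaling gave 7 focal adhesion genes lower in KD2. In KD2 no alternative took TNS4 under 1.5-fold (-1.14 to -0.70). With normexp correction TNS2 stood at -0.53 in KD1 and -0.40 in KD2, TNS3 at 0.11 and 0.12 and the last TNS1 probe at 0.54 and 0.27. This left 1 tensin probe lower and 0 higher in each knockdown. With spike-in scaling the KD1 changes were -0.43 for TNS4, -0.41 for TNS2, 1.72 for TNS3, 1.98 for the last TNS1 probe and 0.078 for the TNS1 probe at base 7159, so 0 tensin probes were lower. With the series matrix these were -0.65, -0.63, 1.503, 1.76 and -0.14. The mean over TNS1 probes was 0.39 in KD1 and 0.38 in KD2. Requiring signal on all arrays compared left 1 higher tensin probe in each knockdown, since TNS3 drops out. At a fold of 2, KD2 had 1 lower and 0 higher tensin probes.

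Counts of tensin-binding genes higher in KD1 and KD2 became 12 and 5 with spike-in scaling, and 0 and 0 at a fold of 2. The KD1 count was 9 with the series matrix, and the KD2 count 0 with normexp or median scaling. The lower count in KD1 was 1 with quantile normalization or a percentile over detected probes. In KD2 it was 0 with normexp, spike-in scaling, a fold of 2 or the mean over probes. Focal adhesion genes higher in KD1 and KD2 numbered 9 and 6 with spike-in scaling, and 0 and 0 at a fold of 2. They numbered 6 in KD1 with the series matrix, and in KD2 1 with normexp and 0 with median scaling. Those lower in KD1 numbered 1 with median scaling or cyclic loess and 0 with normexp, spike-in scaling, the series matrix or a fold of 2. In KD2 they numbered 3 with cyclic loess or the series matrix and 1 with spike-in scaling or a fold of 2. The cause was not tested, except that normexp adds its offset of 50 to dim probes and a fold of 2 is stricter by construction.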
